A study of Mus musculus with 2 samples.

Results

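Integrins are cell surface receptors made of an alpha and a beta chain, and laminins are the proteins, built of an alpha, a beta and a gamma chain, that form the sheet of basement membranes. The arrays carried 37 genes for such chains, 26 integrin and 11 laminin genes, among 28785 gene names in all. They were chosen by name: every gene named Itga, Itgb, Lama, Lamb or Lamc with a number, and Itgae, Itgal, Itgam, Itgav and Itgax. The same rule matched 2 genes that encode no chain, Itgb3bp and Itgb4bp, and these are described apart. The gene printed as Lamb1-1 in the files is called Lamb1 here.

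Tumour RNA was compared between 2 pools, the enriched environment pool and the standard environment pool. Both came from C57BL/6 mice that entered their housing at 3 weeks of age, received Panc02 cells under the skin and stayed in that housing for 5 more weeks. Panc02 is a mouse pancreatic carcinoma line, an enriched environment is housing with more stimulation than ordinary caging, and standard caging served as the comparison. Each pool held tumour RNA of 6 mice and was read on 1 array, so there was no replicate, no test between the housings was possible and every value describes these 2 pools.

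Throughout, levels are log2 intensities with the array's 75th percentile set to 0, and differences are enriched minus standard environment levels. A gene was measured where at least 1 probe was well above background on both arrays, and "higher" or "lower" in a count means a difference of at least 1, or 2-fold. Where a gene had several probes, their differences scattered with a typical (median) SD of 0.17. This spread can include differences between transcript forms, and it covers neither error shared by a whole array nor the spread between mice. The lowest signal well above background was at -6.20 on the enriched and -5.68 on the standard environment array, and no spot was saturated.

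The beta chain of an integrin is often shared by several alpha chains, and the pair decides the ligand. Epithelial cells stand on laminin through α6β4 and α3β1, of which α6β4 anchors the hemidesmosome to a laminin that contains the chains α3 and β3. Skeletal muscle fibres are held by α7β1 and by dystroglycan to a laminin that contains the α2 chain, and leukocytes use the β2 and β7 integrins to adhere to vessel walls and epithelium.

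Of the 37 chains, 36 were measured on both arrays. Of these, 5 were higher in the enriched environment pool (among them Lamb3, Itga2, Itgb7 and Lama3) and 4 were lower (Itgb2l, Lama2, Itgb6 and Lamc3). That is 13.9% and 11.1% of the chains, where 5.71% and 9.46% of all 20851 measured genes were higher and lower. The median difference was 0.10 over the chains and 0.03 over all measured genes. Among 21 chains with more than 1 probe measured, 15 had all probes on the same side of 0. Fewer cells of a type and less RNA per cell cannot be told apart in such pooled tissue.

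**Figure D1:**
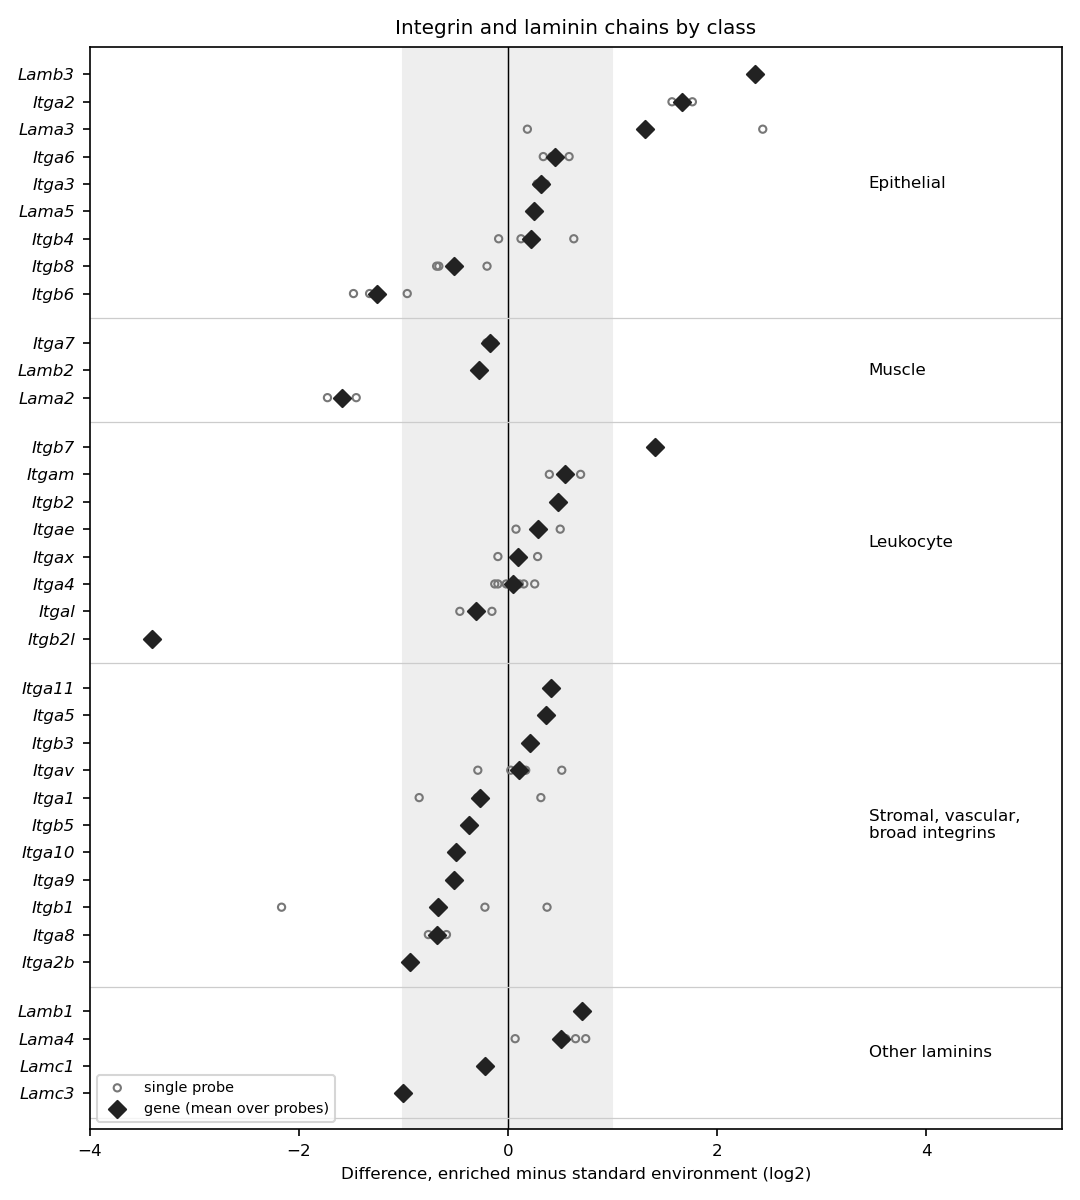
Difference in log2 units (x axis, enriched minus standard environment) of the chains named in the text, in 5 classes. Diamonds are genes, open circles single probes, and the grey band marks differences under 2-fold. Of the genes drawn, Lamb3 lies furthest right at 2.36 and Itgb2l furthest left at -3.40, and most others lie inside the band.

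Motif counts cover the upstream sequences of 24 of the chains, 6 of them among those at least 2-fold apart. The 250 bases before an annotated start are shown for 5 of these, namely 2 epithelial chains that were higher (Lamb3, Itga2), 1 that was lower (Itgb6), the α2 laminin chain (Lama2) and the chain with the largest difference (Itgb2l). They are RefSeq sequences on GRCm38.p6, read 5′ to 3′ on the strand of the gene. Capitals mark GAGGAA (a site bound by the ETS factor PU.1) or CAGCTG (an E-box), on either strand.
Lamb3, plus strand, chr1:193301744-193301993: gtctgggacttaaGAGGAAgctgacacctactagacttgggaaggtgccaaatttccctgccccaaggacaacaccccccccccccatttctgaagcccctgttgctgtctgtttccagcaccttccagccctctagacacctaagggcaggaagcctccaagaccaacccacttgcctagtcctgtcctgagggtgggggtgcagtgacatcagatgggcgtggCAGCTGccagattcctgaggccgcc
Itga2, minus strand, chr13:114932101-114932350: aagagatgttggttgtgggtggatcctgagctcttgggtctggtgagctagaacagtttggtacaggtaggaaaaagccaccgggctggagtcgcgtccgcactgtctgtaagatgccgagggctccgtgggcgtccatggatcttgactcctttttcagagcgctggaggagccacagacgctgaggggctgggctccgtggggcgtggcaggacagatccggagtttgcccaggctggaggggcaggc
Itgb6, minus strand, chr2:60722604-60722853: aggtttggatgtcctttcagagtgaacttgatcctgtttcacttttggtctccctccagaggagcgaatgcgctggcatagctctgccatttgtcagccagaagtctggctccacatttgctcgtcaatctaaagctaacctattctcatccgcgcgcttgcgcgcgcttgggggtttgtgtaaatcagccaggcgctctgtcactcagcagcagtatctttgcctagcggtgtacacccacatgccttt
Lama2, minus strand, chr10:27616943-27617192: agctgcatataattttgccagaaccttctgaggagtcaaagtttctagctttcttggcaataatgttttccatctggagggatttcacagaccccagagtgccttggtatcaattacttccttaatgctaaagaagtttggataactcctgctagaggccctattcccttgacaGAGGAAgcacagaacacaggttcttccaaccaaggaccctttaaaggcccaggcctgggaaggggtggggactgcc
Itgb2l, minus strand, chr16:96443615-96443864: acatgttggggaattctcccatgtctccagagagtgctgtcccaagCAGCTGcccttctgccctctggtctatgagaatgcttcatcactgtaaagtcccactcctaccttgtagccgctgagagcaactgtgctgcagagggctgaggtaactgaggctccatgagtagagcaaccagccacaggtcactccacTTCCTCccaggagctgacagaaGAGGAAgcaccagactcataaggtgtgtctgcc
In the windows shown, GAGGAA occurred for Lamb3, Lama2 and, at 2 places, Itgb2l, CAGCTG for Lamb3 and Itgb2l, and neither for Itga2 and Itgb6. Lamb3 and Itgb6 each had a window at another annotated start, not shown: that of Itgb6 (chr2:60673694-60673943) held GAGGAA at 1 place, and that of Lamb3 held neither. Over the chains counted, GAGGAA was found in 14 of 27 windows and CAGCTG in 7 of 27. The shares among 32851 windows of all genes were 23.3% and 13.0%. Lama3 was not among the chains searched, so these counts do not cover every chain. The motifs TGANTCA (AP-1) and GGGCGG (GC box) were searched too, and occurred in 1 and 9 of the 27 windows, against 6.75% and 32.7% of all windows. None of the 8 windows counted for chains at least 2-fold apart held TGANTCA or GGGCGG. A match is a description of the letters in these windows only.

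The epithelial chains did not move as a block. The laminin chains Lama3 and Lamb3 of the hemidesmosome and the collagen receptor chain Itga2 were among those higher in the enriched environment pool, the laminin-binding integrin chains Itga6, Itgb4 and Itga3 differed by less than 0.5, and Itgb6 was lower. Of the 10 epithelial chains, all measured, 4 were higher and 1 lower, with a median of 0.39.

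Lamb3, the β3 laminin chain, was at 0.79 in the enriched and -1.57 in the standard environment pool, a difference of 2.36 or 5.14-fold on its only probe. It stood at place 149 from the highest of all measured genes. With a single probe, no spread between probes can be given for Lamb3.

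Lama3, the α3 chain, was at -1.97 in the enriched and -3.29 in the standard environment pool, a difference of 1.31, but its 2 probes disagreed. The probe on chromosome 18 from 12932220 to 12932279 (mm7, the build of the array design) read -0.12 in the enriched and -2.56 in the standard environment pool, a difference of 2.44. The probe 125 kb away, from 12806795 to 12806854, read -3.83 in the enriched and -4.01 in the standard environment pool, a difference of 0.19. The Lama3 value is thus a mean of a large and a small difference, and with the normexp background correction it was 0.93, under 2-fold.

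Itga2, which with β1 forms a collagen and laminin receptor, was at -2.77 in the enriched and -4.44 in the standard environment pool. Its 2 probes differed by 1.57 and 1.76, with a mean of 1.67, and with the normexp background correction the gene differed by 0.78.

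The chains Itga6, Itgb4 and Itga3 of the laminin receptors α6β4 and α3β1 were within 2-fold, and Itgb1, shared with many other integrins, is given with the muscle chains. Itga6 was at 1.62 in the enriched and 1.17 in the standard environment pool, and its 3 probes differed by 0.34 to 0.59. Itgb4, its hemidesmosomal partner, differed by 0.22 over 3 probes from -0.09 to 0.63, and its brightest probe alone put it at -0.09. Itga3 was at 1.36 in the enriched and 1.04 in the standard environment pool, a difference of 0.32 with an SD of 0.04 over 3 probes. These 3 genes stood within 2-fold while the ligand chain Lamb3 differed by 5.14-fold.

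Lama5, the α chain of the laminin most widespread in epithelial and vessel basement membranes, was at 3.99 in the enriched and 3.74 in the standard environment pool, on 1 probe. Itgb6 pairs with αV in a receptor of epithelial cells that activates latent TGF-β. It was at -2.61 in the enriched and -1.36 in the standard environment pool, a difference of -1.25, and its 3 probes gave -1.48, -1.32 and -0.96. Itgb8, another partner of αV, differed by -0.51, with 3 probes from -0.68 to -0.20. Itgav, the shared alpha chain, differed by 0.11 over 4 probes from -0.29 to 0.52, and its brightest probe alone put it at -0.29. The Itgb6 probes all lay below the range of the Itgav probes, whereas those of Itgb8 overlapped it.

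The epithelial marker list ran higher than most of these chains. All 11 of its 11 genes (among them Msln at 2.43, Muc4 at 2.43 and Cdh1 at 2.37) were at least 2-fold higher, with a median of 1.87. Their summed signal, in units of each array's 75th percentile, was 949 in the enriched and 267 in the standard environment pool, and none was below background. The part of this list in the chain differences was not tested.

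**Figure D2:**
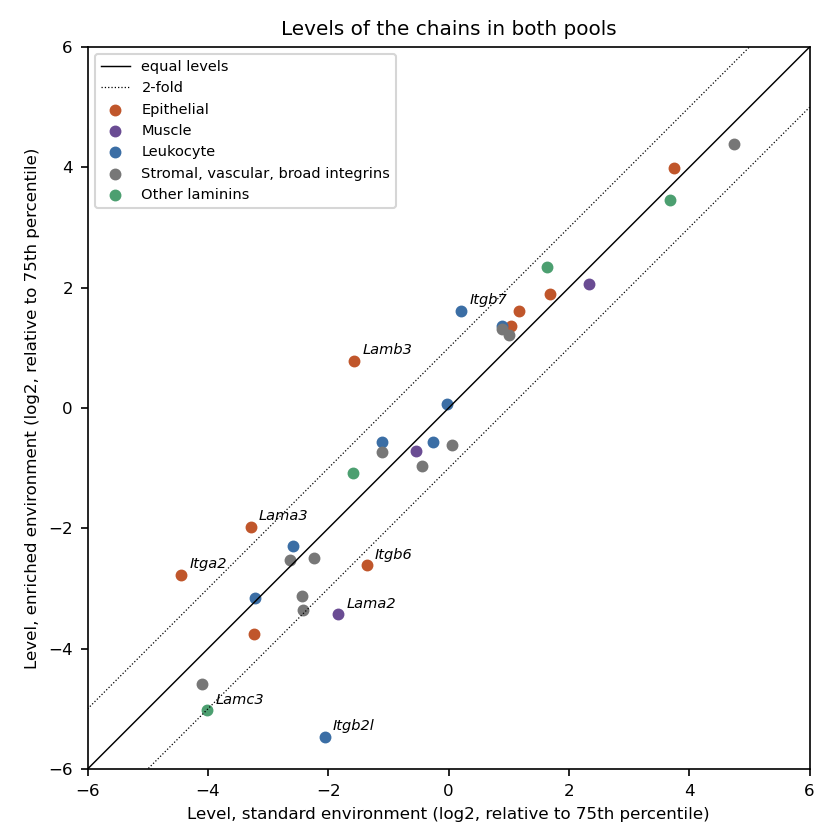
Level of the chains named in the text in the enriched (y axis) against the standard environment pool (x axis), both in log2 units relative to the array's 75th percentile. The solid line marks equal levels and the dotted lines 2-fold, and colours give the class. The 8 labelled chains lie on or outside the dotted lines, Lamb3 furthest above and Itgb2l furthest below.

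The muscle chains were lower to unequal degrees. Lama2 was lower and Itga7 and Lamb2 were within 2-fold, beside a skeletal muscle marker list in which 14 of 14 genes were lower and the median was -7.80. The class of 3 had a median of -0.28, and 1 of 3 was at least 2-fold lower.

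Lama2, the α chain of the muscle basement membrane, carried 10 repeated spots of 1 probe. They read -2.56 to -2.40 with a median of -2.44 on the enriched environment array and -1.11 to -0.95 with a median of -1.0 on the standard environment array. Their SDs were 0.06 and 0.05, beside median SDs of 0.07 and 0.06 over all probes with repeated spots. Such spots reread the same pool on the same array, so their spread does not cover the mice or the housing. Another probe differed by -1.73, which gave the gene a difference of -1.59 or 3.01-fold, and a further probe was below background on both arrays.

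Itga7, the alpha chain of the main laminin receptor of muscle fibres, was at -0.71 in the enriched and -0.54 in the standard environment pool. Its 2 probes differed by -0.20 and -0.13. Lamb2, a β chain of laminins at the neuromuscular junction and in the kidney, was at 2.06 in the enriched and 2.34 in the standard environment pool, a difference of -0.28 on 1 probe. Neither approached the difference of the marker genes Ckm at -8.56, Myh2 at -8.47 and Mb at -8.40.

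Itgb1, the β chain shared by the largest number of integrins, gave different values by probe. A probe drawn from the accession of β1D, the splice form of striated muscle, lies on chromosome 8 between 127335633 and 127340651 (mm7). It read -4.06 in the enriched and -1.90 in the standard environment pool, a difference of -2.16. The probe with repeated spots read 0.81 to 1.0 (median 0.98, 9 spots) in the enriched and 1.12 to 1.24 (median 1.17, 10 spots) in the standard environment pool, a difference of -0.22. The remaining probe differed by 0.37. The mean over the 3 probes, -0.67, hides this split, and without the β1D probe Itgb1 differed by 0.08. Under 5 other treatments of the data the β1D probe differed by -2.16 to -1.54. The β1D probe was singled out after its value was seen, and whether it reads the β1D form alone was not checked.

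**Figure D3:**
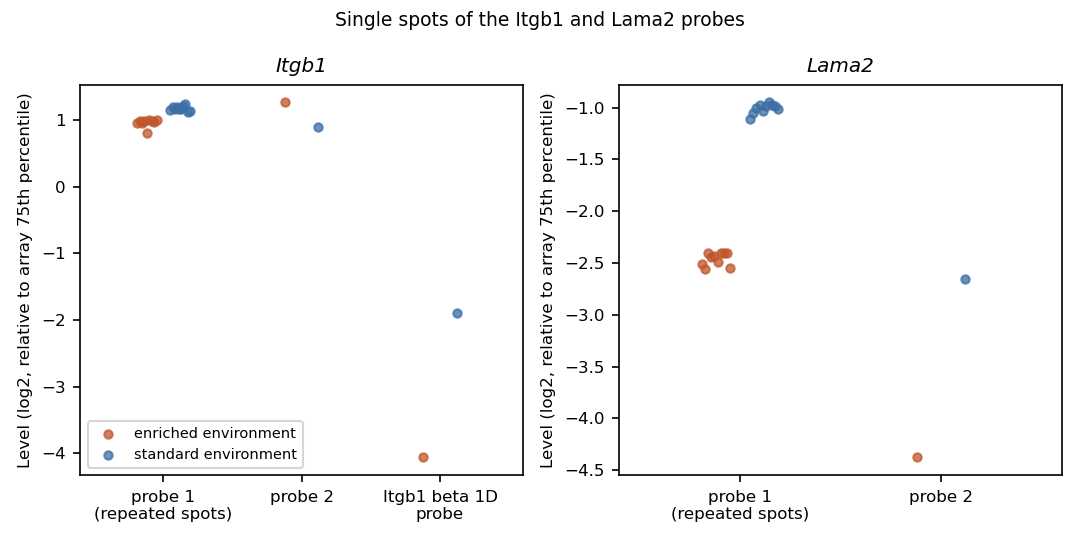
Level (y axis, log2 relative to the array's 75th percentile) of each spot of the Itgb1 and Lama2 probes that were well above background on both arrays, enriched environment in orange and standard environment in blue. Repeated spots cluster within 0.2 units, the common Itgb1 probes of both pools lie near 1, and the β1D probe and both Lama2 probes lie lower in the enriched environment pool.

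The summed signal of the muscle markers was 84.8 in the enriched and 4250 in the standard environment pool. Each of the markers was still well above background in the enriched environment pool, at levels from -3.40 to 5.94, against 3.81 to 9.26 in the standard environment pool. The part of this difference in Lama2 and in the β1D probe was not tested.

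Leukocyte chains were within 2-fold apart from a single chain in each direction. Of 8 measured, Itgb7 was higher and Itgb2l lower, and the class had a median of 0.19. A list of 10 genes made by all leukocytes had a median of 0.28 with none past 2-fold, and summed signals of 83.7 in the enriched and 70.2 in the standard environment pool.

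Itgb2, the common β chain of leukocyte integrins, was at 1.36 in the enriched and 0.88 in the standard environment pool, a difference of 0.48. Its alpha partners spread around 0. Itgam, of macrophages and neutrophils, was at -0.56 in the enriched and -1.11 in the standard environment pool, with probes at 0.40 and 0.70 and a mean of 0.55. Itgax, of dendritic cells and macrophages, differed by 0.10 with probes at -0.10 and 0.29, and Itgal by -0.31 with probes at -0.46 and -0.15. None of the β2 pairs came near 2-fold.

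Itgb7, which pairs with α4 to home lymphocytes to the gut and with αE to hold them to E-cadherin, was at 1.62 in the enriched and 0.21 in the standard environment pool. This difference of 1.41, or 2.65-fold, rests on 1 probe. Its alpha partners did not share it. Itga4 differed by 0.05 over 6 probes from -0.12 to 0.26, and Itgae by 0.29 with probes at 0.08 and 0.50. Cdh1, the E-cadherin bound by αEβ7, was at 3.68 in the enriched and 1.31 in the standard environment pool, and Madcam1, the vessel ligand of α4β7, at -5.52 in the enriched and -4.39 in the standard environment pool. The list of T and natural killer cell genes had a median of 0.36, with none of 8 past 2-fold, and summed signals of 8.93 in the enriched and 6.79 in the standard environment pool.

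Itgb2l, a relative of the β2 chain, was at -5.46 in the enriched and -2.06 in the standard environment pool, a difference of -3.40 or 10.6-fold on 1 probe. It stood at place 281 from the lowest of all measured genes. Its enriched environment level lay less than 1 unit above the lowest signal well above background there, and with the normexp background correction it differed by -1.93. Of 7 measured neutrophil genes 4 were also lower, namely Mmp8 at -4.25, Ltf at -2.52, S100a8 at -1.88 and S100a9 at -1.33. Cxcr2 was higher at 1.44, and Csf3r at 0.61 and Mmp9 at -0.71 were within 2-fold. Camp and Ngp passed the background threshold in the standard environment pool alone. The neutrophil list summed to 60.0 in the enriched and 170 in the standard environment pool, and its part in the Itgb2l difference was not tested.

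The remaining integrin chains, of stroma, vessels and broad expression, held no member past 2-fold. Of 11 measured, 4 had positive and 7 negative differences, with a median of -0.37. Itgb1, given with the muscle chains, is among the 7. Without its β1D probe it differed by 0.08, and the class median was -0.27. Itga2b, the alpha chain of the platelet fibrinogen receptor, was at -3.35 in the enriched and -2.42 in the standard environment pool, a difference of -0.93. Itgb3, its partner, which also serves αV outside platelets, was at 1.21 in the enriched and 1.01 in the standard environment pool. Beside them, 7 of 9 platelet genes were lower, led by Gp9 at -4.50, Ppbp at -3.98 and Gp1ba at -3.63, with summed signals of 6.08 in the enriched and 14.0 in the standard environment pool. Itga2b is itself in that list, and the part of the list was not tested.

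Among the collagen receptors, Itga11 of fibroblasts was at 1.31 in the enriched and 0.89 in the standard environment pool, a difference of 0.42. Itga1 differed by -0.27 over 4 probes from -0.85 to 0.32, and Itga10 by -0.50. Itga5, the alpha chain of the fibronectin receptor, differed by 0.36, and Itgb5, a vitronectin receptor chain, was at 4.38 in the enriched and 4.75 in the standard environment pool. Itga8 differed by -0.67 and Itga9 by -0.52. The fibroblast markers split, with 4 of 9 higher (Col3a1 at 2.96, Col1a1 at 2.02, Thy1 at 1.80, Col1a2 at 1.75) and 3 lower (Pdgfrb at -1.18, Dcn at -1.03, Pdgfra at -1.02), and summed to 403 in the enriched and 167 in the standard environment pool. The endothelial list had a median of -0.70 with 2 of 9 lower (Flt1 at -1.60, Tie1 at -1.05) and none higher, and summed to 13.6 in the enriched and 27.8 in the standard environment pool.

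The other laminin chains had a median of 0.14 over 4 measured genes. Lamb1, the β chain of most laminins, was at 2.34 in the enriched and 1.63 in the standard environment pool, a difference of 0.71. Lamc1, its usual γ partner, was at 3.46 in the enriched and 3.68 in the standard environment pool, a difference of -0.22. Lama4, of vessel and fat basement membranes, differed by 0.50 over 4 probes from 0.07 to 0.75. Lama3 and Lamb3 of the hemidesmosomal laminin differed by 1.31 and 2.36, whereas the chains of the muscle laminin differed by -1.59 for Lama2 but 0.71 and -0.22 for its partners Lamb1 and Lamc1.

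Lamc3 was at -5.02 in the enriched and -4.01 in the standard environment pool, on 1 of 3 probes, a difference of -1.0 that was under 2-fold in 6 of 9 alternative treatments of the data. Lama1, the α chain of embryonic laminin, was well above background on the enriched environment array only. Its brighter probe read -4.67 in the enriched environment pool and -7.68, not well above background, in the standard environment pool. The enriched reading lay 2.02-fold above the lowest signal that passed the background threshold in the standard environment pool. On the enriched environment array some probes that did not pass read above the lowest that did, so this fold is not a strict lower bound. The other Lama1 probe lay under that reference and gave no fold.

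The 2 matches that are no chains were within 2-fold. Itgb3bp, which encodes a centromere protein, differed by 0.32 with 3 probes from -0.15 to 0.79. Itgb4bp, now named Eif6, a factor in assembly of the large ribosomal subunit, differed by 0.65 with 3 probes from 0.55 to 0.77.

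The partners of the chains were examined in 5 lists. The ligands and counter-receptors outside the laminins had a median of 0.01, with 3 of 14 measured genes higher and 2 lower. Tnc, the matrix protein tenascin C, was at 0.45 in the enriched and -3.11 in the standard environment pool, a difference of 3.55 over 3 probes (SD 0.53). Cdh1 differed by 2.37 and Npnt, the nephronectin bound by α8β1, by 1.80, while Vtn, encoding vitronectin, differed by -1.81 and Madcam1 by -1.12. Fn1, encoding fibronectin, differed by -0.39. Of the fibrinogen chains, Fga and Fgg were not well above background on either array. Fgb passed in the standard environment pool alone, at -4.60 there and -7.43 in the enriched environment pool.

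Basement membrane partners of laminin had a median of 0.24, with 2 of 12 higher and none lower. These were Bcam, a receptor for the laminin α5 chain, at 1.99 in the enriched and 0.31 in the standard environment pool, and Col15a1, a collagen of the basement membrane zone, which differed by 1.28. The hemidesmosome list had a median of 0.03 over 5 measured genes, and of -0.25 with the brightest probe of each gene. Krt14 at 3.15 and Krt5 at 2.01, the basal keratins, were higher, whereas Plec at 0.03, Cd151 at -0.25 and Dst at -0.36, which link α6β4 to keratin or to its neighbours in the membrane, were within 2-fold. The Dst value is a mean over 7 probes with an SD of 0.71. Col17a1, also in the list, was well above background on both arrays only on different probes and gave no difference. Among the measured genes, the keratins lay with Lama3 and Lamb3 in difference, and Plec, Cd151 and Dst with the integrin pair.

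Inside the cell, the largest differences of the adhesion complex were those of 2 muscle proteins that bind β1. In the list of 24 measured genes the median was -0.12, with 1 higher and 6 lower. Itgb1bp2, or melusin, which binds the β1 tail in striated muscle, was at -5.15 in the enriched and 1.20 in the standard environment pool, a difference of -6.35. Itgb1bp3, a muscle protein that also binds β1, was at -4.58 in the enriched and 2.86 in the standard environment pool, a difference of -7.45. The other lower genes were Parvb at -1.54, Lims2 at -1.35, Fermt2 at -1.31 and Tns1 at -1.19, and the only higher gene was Actn4 at 1.0, named here after its value was seen. Talin 1, Tln1, differed by -0.22, and Ilk, the integrin-linked kinase, by -0.19.

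The dystrophin-glycoprotein complex, the other link of muscle fibres to laminin, had a median of -0.71, or -1.11 with the brightest probe of each gene, with 7 of 15 measured genes lower and none higher. Sgca, a sarcoglycan of striated muscle, was at -5.17 in the enriched and 2.05 in the standard environment pool, a difference of -7.22. Dtna differed by -2.43, Sgcd by -1.71, Sspn by -1.32 and Sgcb, named here after its value was seen, by -1.28. Dag1, the dystroglycan that binds laminin in many tissues, differed by -0.71 and Dmd by -0.38. Sgca, Itgb1bp2 and Itgb1bp3 thus differed by -6.35 or beyond, whereas Itga7 differed by -0.17. The muscle marker median of -7.80 stands beside them, and its part in these differences was not tested.

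**Figure D4:**
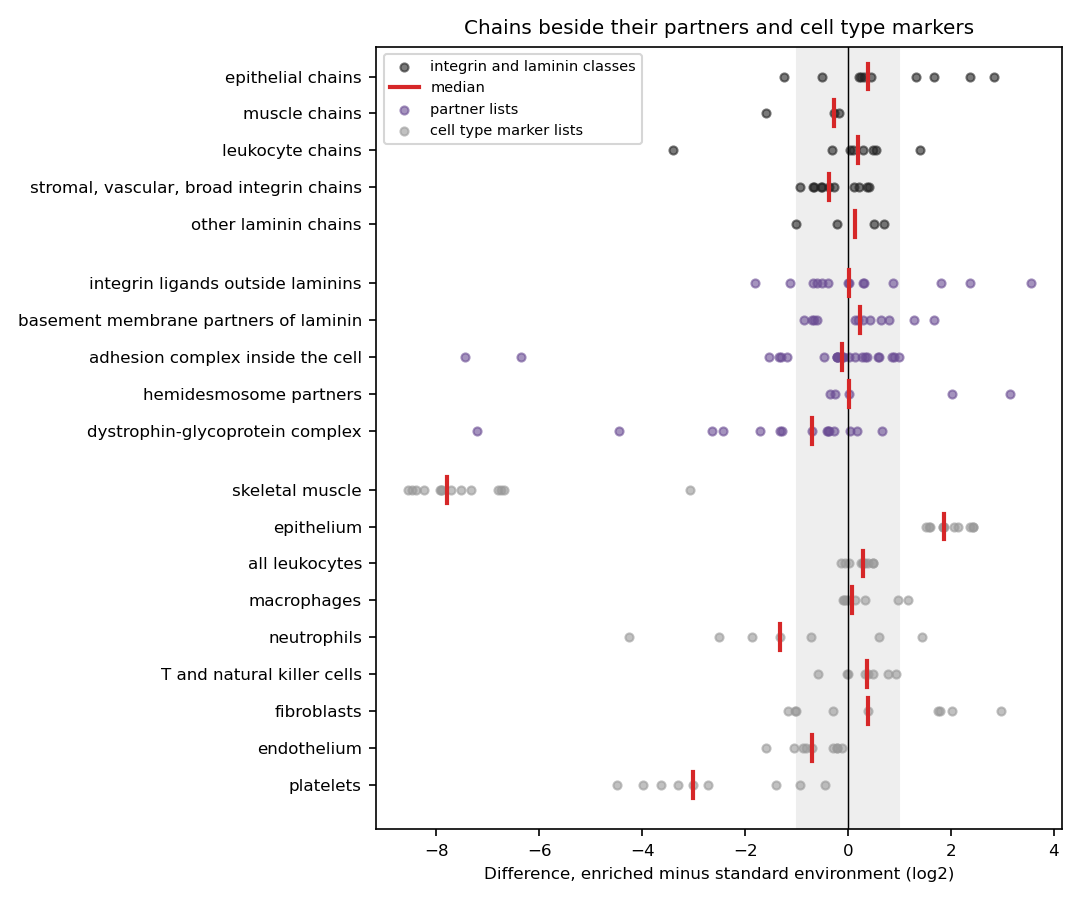
Difference in log2 units (x axis) of each measured gene in the 5 classes of chains (black), 5 partner lists (purple) and 9 marker lists (grey), with the median of each list as a red bar and the range under 2-fold in grey. The medians of the chain classes lie between -0.37 and 0.39, whereas those of the muscle and epithelium markers are -7.80 and 1.87.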

How the data were processed

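Per the labels' protocols, tumour RNA of 6 mice per housing was pooled and labelled with Cy3, and 1 Agilent array of the whole mouse genome was run per pool. The deposited scanner files hold a linear intensity per spot, from which a spatial background trend was removed and which was detrended again by a factor, per the file headers. The software was Feature Extraction 10.7.1.1 of Agilent (submitters' processing notes). The authors also deposited a table of log2 values for 30319 probes, whose scaling and centring are unstated. It correlated with the scanner values at r = 1.00 on both arrays, with column medians of 8.56 for the enriched and 8.54 for the standard environment pool, and was used as an alternative.

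Here, log2 of the processed intensity was taken minus the array's 75th percentile (984 in the enriched and 753 in the standard environment pool). Control and outlier spots were left out, spots of a probe were averaged, and probes well above background on both arrays (30298 of 41161) were averaged per gene. Probe names other than those of the members were updated through RefSeq accessions (22951 of 41174 probes). Background steps change dim probes most. Probes are placed on mm7, promoters on GRCm38.p6. The averaging of probes per gene was run on simulated differences added to scaled values, and the earlier steps were not. The rule was to name every member and, of each partner list, the up to 6 largest differences past 2-fold. Of these, 1 chain and 2 partner genes are counted but not reported here. Members, classes and lists were chosen with earlier results of these data known, and no p-value was computed. Probes still named Plec1 were not added to Plec. Versions were Python 3.11.15, pandas 2.3.3, R 4.3.3 and limma 3.58.1.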

Additional observations from a re-analysis of the deposited data

How the results depend on the processing

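Each result was recomputed under 9 alternatives: another background correction (normexp), 3 other scalings, 2 other filters on dim probes, 2 other ways to join probes, and the deposited log2 table. Of 36 chains, 33 kept their side of the 2-fold threshold under each alternative that measured them, the exceptions being Lamc3, Itga2 and Lama3, and 32 kept their sign, the exceptions being Itga4, Itgav, Itgb1 and Itgb4. Itgb2l was not measured under the stricter filter. With normexp, which lifts dim spots by an offset of 50, 3 chains were at least 2-fold higher in place of 5, and 668 of all genes in place of 1191. Without a filter on dim probes 3796 of all genes were at least 2-fold lower in place of 1972, and the other laminin chains had a median of 0.50. With the brightest probe per gene the medians of the dystrophin and hemidesmosome lists were -1.11 and -0.25. The cause was not tested. The medians of the other classes moved by less than 0.17 under every alternative, including Itgb1 without its β1D probe, which was chosen after seeing the data. The median of all genes moved between -0.11 and 0.12. No paired analysis was possible because each group has a single array. Dim chains such as Itgb2l, Lamc3 and Lama1 lie near background, as do Madcam1, Sgca and Itgb1bp2 in the enriched environment pool, which limits their values. Pooling leaves the spread between mice unknown.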
